A study of Mus musculus with 4 samples.

Results

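A set of 10 genes of the prostaglandin pathway was followed in mouse embryonic stem (ES) cells that lack the transcription factor Klf5, with the inducible cyclooxygenase gene Ptgs2 at their centre. The members were Pla2g4a, Ptgs1, Ptgs2, Ptges, Ptges2, Ptges3, Ptgis, Hpgd, Ptger2 and Ptger4, taken by gene symbol. Of these 10 genes, 8 had probe sets (groups of probes for a transcript on the array) with no other symbol, 13 probe sets of 45101 on the array; in genes, 8 of the 18194 with a probe set of their own. No probe set carried the name of Ptgs1, and 2 probe sets carried the names of both Ptges3 and its pseudogene Ptges3-ps, so Ptgs1 and Ptges3 were not analysed here. Ptgs2 was chosen by its measured difference between the genotypes on these same arrays, which stood among the largest, and the other genes because they belong to the same pathway.

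The samples were 2 Klf5 KO clones and 2 wild-type (WT) clones, all ES cells grown in serum with LIF, a cytokine that supports self-renewal of mouse ES cells. Each clone's total RNA was hybridised to 1 Affymetrix array. The labels do not give the parent line, the passage or the part of Klf5 that was deleted, and they do not say that the clones' cultures were independent beyond being separate clones. Klf5 itself separated the arrays as labelled: its brightest probe set read 34.8 and 49.9 in Klf5 KO clones 1 and 2, against 2398 and 1782 in WT clones 1 and 2. Another Klf5 probe set differed much less, at 82.6 and 61.0 in the KO clones, against 102 and 88.6 in the WT clones. The dimmest read 3.43 and 9.77 in the KO clones, against 14.8 and 2.57 in the WT clones, so the groups overlapped. Values are intensities on a linear scale, made comparable between arrays by quantile normalization. Differences are given as log2(intensity + 16), Klf5 KO minus WT, with the moderated standard error (SE) of limma and n = 2 clones per group. The level of one probe set cannot be set against that of another.

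Prostaglandins are short-range lipid signals. Cytosolic phospholipase A2, the product of Pla2g4a, frees arachidonic acid from membranes, and the cyclooxygenases made from Ptgs1 and Ptgs2 turn it into prostaglandin H2. Terminal synthases then make the active forms, which act on G protein-coupled receptors on the same or nearby cells and are broken down by 15-hydroxyprostaglandin dehydrogenase (Hpgd). Ptgs2 is well known as a gene that growth factors and inflammatory cytokines switch on in fibroblasts and macrophages.

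The promoters of the genes that differed most, and of Ptges, which stands between Ptgs2 and the receptors in the pathway, are shown because Klf5 is a DNA-binding factor and Ptgs2 and Pla2g4a were both higher without it. The sequences are RefSeq's, 250 bases before and 30 after the annotated start, from GRCm38.p6. Capitals mark matches, on either strand, to CACCC (the CACCC box, a form of the sites that Kruppel-like factors bind), TGACGT (the core of the cyclic AMP response element) or CACGTG (an E-box).
Pla2g4a, GRCm38.p6, chr1:149961261-149961540, minus strand: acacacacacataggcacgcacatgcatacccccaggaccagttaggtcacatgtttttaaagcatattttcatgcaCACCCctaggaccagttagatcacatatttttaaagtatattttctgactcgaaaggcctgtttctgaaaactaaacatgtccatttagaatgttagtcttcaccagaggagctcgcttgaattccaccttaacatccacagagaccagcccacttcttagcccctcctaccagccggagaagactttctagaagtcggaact
Ptgs2, GRCm38.p6, chr1:150099781-150100060, plus strand: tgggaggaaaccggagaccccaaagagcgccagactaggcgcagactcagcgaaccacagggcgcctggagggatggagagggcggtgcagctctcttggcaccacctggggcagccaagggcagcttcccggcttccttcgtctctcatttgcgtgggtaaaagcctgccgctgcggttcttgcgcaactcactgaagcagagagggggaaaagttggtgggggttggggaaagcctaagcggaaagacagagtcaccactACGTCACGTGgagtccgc
Ptges, GRCm38.p6, chr2:30903268-30903547, minus strand: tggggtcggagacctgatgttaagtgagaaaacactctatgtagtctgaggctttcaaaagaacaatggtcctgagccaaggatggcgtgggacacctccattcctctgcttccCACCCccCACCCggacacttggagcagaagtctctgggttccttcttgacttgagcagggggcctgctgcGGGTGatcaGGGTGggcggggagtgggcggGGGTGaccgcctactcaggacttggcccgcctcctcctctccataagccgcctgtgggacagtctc
Ptger2, GRCm38.p6, chr14:44987861-44988140, plus strand: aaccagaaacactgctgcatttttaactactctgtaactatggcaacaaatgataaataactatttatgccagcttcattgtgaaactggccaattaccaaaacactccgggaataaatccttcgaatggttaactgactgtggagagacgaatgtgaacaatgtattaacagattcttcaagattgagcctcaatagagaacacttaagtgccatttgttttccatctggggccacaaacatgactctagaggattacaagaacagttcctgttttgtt
The Ptges window held 5 CACCC matches and the Ptgs2 and Ptger2 windows 0. Other forms of the sites that Kruppel-like factors bind were not searched for, so 0 matches does not mean no such site. The table held 2 windows for Pla2g4a, and the one shown had 1 match and the other 0. Of the 32851 promoter windows in the table, 55.4% held at least 1 CACCC match. In the Ptgs2 window an ACGTCA at bases 13 to 18 from the start (the start being base 1), the reverse complement of TGACGT, overlapped a CACGTG at bases 17 to 22. This pair of elements is known from work on the rodent Ptgs2 promoter. The positions given here count from the annotated start, which need not be the start used in that work. TGACGT was present in 7.26% of all windows and CACGTG in 6.79%. These are letter matches in a short window and say nothing of binding in these cells.

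Ptgs2 and Pla2g4a were several-fold higher in both KO clones, and the other members fitted differed by less than 2-fold on this scale. The brighter Ptgs2 probe set read 876 and 780 in Klf5 KO clones 1 and 2, against 73.2 and 32.6 in WT clones 1 and 2. Both KO clones were far above both WT clones, and the KO clones lay closer together than the WT clones did. The log2 difference was 3.68 ± 0.27 (SE, n = 2 clones per group), a 12.8-fold difference on this scale. Over the 4 pairings of a KO with a WT clone the fold ran from 8.92 to 18.3.

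The dimmer Ptgs2 probe set read 245 and 244 in Klf5 KO clones 1 and 2, against 33.6 and 21.4 in WT clones 1 and 2. It showed the same order of clones, with WT clone 2 lowest, and a smaller difference of 2.60 ± 0.20 (SE, n = 2 clones per group; 6.05-fold). The added constant of 16 weighs more on dim values: with 1 in its place the differences of the brighter and dimmer probe sets were 4.05 and 3.14, and with 64 they were 2.95 and 1.76.

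Pla2g4a read 358 and 268 in Klf5 KO clones 1 and 2, against 38.3 and 49.2 in WT clones 1 and 2. Again the groups were well apart, with a log2 difference of 2.45 ± 0.21 (SE, n = 2 clones per group; 5.48-fold; 1.80 with a constant of 64). Among KO clones, clone 1 was the higher for Pla2g4a (by 0.40 on the log2 scale) and for both Ptgs2 probe sets (by 0.16 and 0.0063). Among WT clones, clone 1 was the higher for both Ptgs2 probe sets and clone 2 for Pla2g4a.

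The plot of normalized intensities by clone shows every member probe set.

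**Figure D1:**
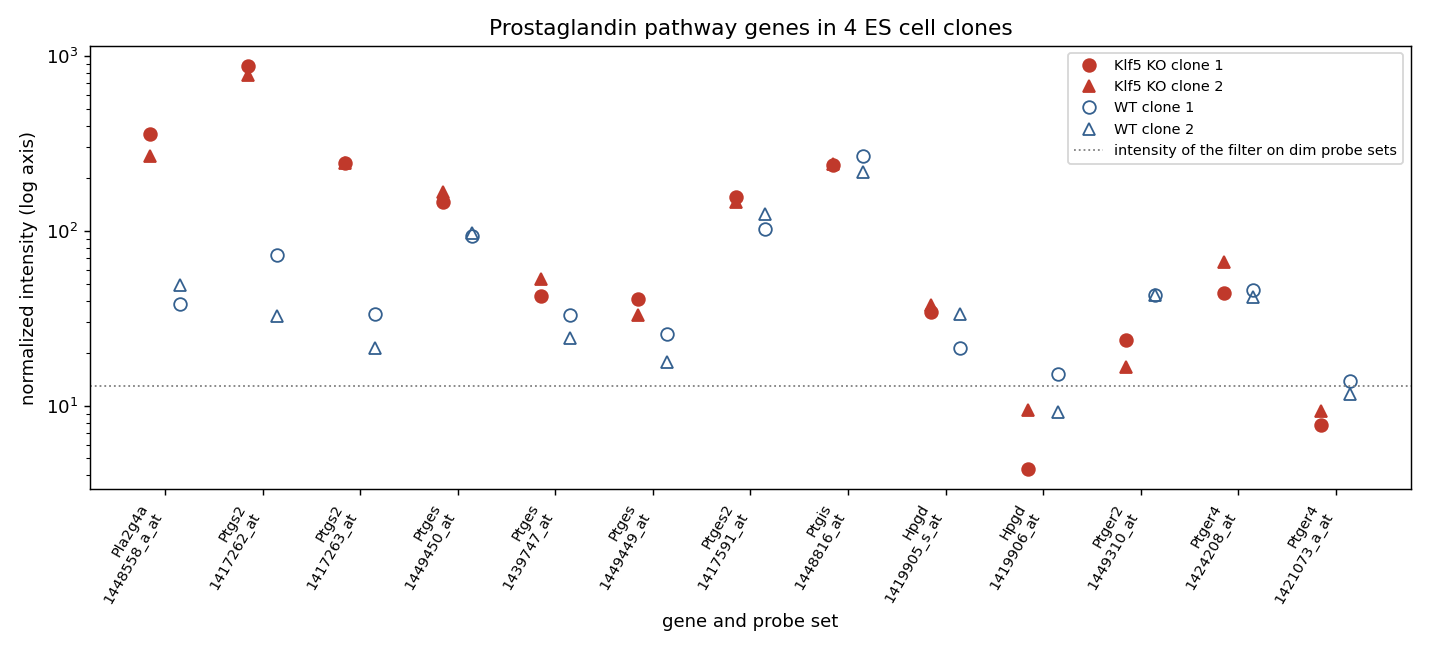
Normalized intensity (log axis) of the 13 member probe sets in 2 Klf5 KO clones (filled) and 2 WT clones (open), in pathway order; heights of different probe sets are not comparable. Ptgs2 and Pla2g4a stand far higher in both KO clones, Ptger2 lower, and the dotted line marks 13.05, the intensity below which dim probe sets were left out of the fit.

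The terminal synthases differed little. Ptges encodes the inducible microsomal synthase of prostaglandin E2, which often acts together with the product of Ptgs2. Its brightest probe set read 146 and 166 in Klf5 KO clones 1 and 2, against 93.5 and 97.3 in WT clones 1 and 2. The groups did not overlap, at a log2 difference of 0.63 ± 0.18 (SE, n = 2 clones per group; 1.54-fold). The other 2 Ptges probe sets had 0.52 ± 0.20 and 0.49 ± 0.20, also with both KO clones above both WT clones. In the intensities as deposited, the groups overlapped for all 3, with WT clone 1 above the lower KO clone. The differences there were 0.39 for the brightest and 0.42 and 0.41 for the others. All 3 probe sets share a target, so they are not separate evidence. Ptges2, a membrane-associated synthase of prostaglandin E2, read 157 and 146 in Klf5 KO clones 1 and 2, against 102 and 125 in WT clones 1 and 2, a log2 difference of 0.37 ± 0.19 (0.24 without WT clone 1 and 0.13 in the intensities as deposited). Ptgis makes prostacyclin, and it read 239 and 243 in Klf5 KO clones 1 and 2, against 268 and 219 in WT clones 1 and 2. The KO values of Ptgis lay inside the WT range. Its log2 difference was -0.0092 ± 0.19, and the sign turned without WT clone 1 (0.13) and without KO clone 1 (0.0024).

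Hpgd, the enzyme that inactivates prostaglandins, had a brighter probe set, of a kind (suffix _s_at) that may pick up transcripts of other genes too, at 34.5 and 37.6 in Klf5 KO clones 1 and 2, against 21.3 and 33.4 in WT clones 1 and 2. Its log2 difference was 0.28 ± 0.20, and 0.071 without WT clone 1. The other Hpgd probe set read 4.35 and 9.49 in the KO clones, against 15.3 and 9.27 in the WT clones, too dim for the fit.

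The prostaglandin E2 receptors were lower in the KO clones or overlapped between the genotypes. Ptger2 encodes EP2, which raises cyclic AMP. It read 23.9 and 16.6 in Klf5 KO clones 1 and 2, against 42.8 and 43.2 in WT clones 1 and 2. Both KO clones were lower, and the WT clones nearly coincided. The log2 difference was -0.71 ± 0.19 (SE, n = 2 clones per group), 1.64-fold higher in WT, and it was -1.07 with a constant of 1 and -0.35 with 64. Ptger4 encodes EP4, which also raises cyclic AMP. Its brighter probe set read 44.3 and 66.1 in Klf5 KO clones 1 and 2, against 46.1 and 42.0 in WT clones 1 and 2, so the groups overlapped, at 0.23 ± 0.21 (0.0079 without KO clone 2). The dimmer one read 7.78 and 9.36 in the KO clones, against 13.9 and 11.7 in the WT clones, and was too dim for the fit.

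Of the 13 member probe sets, 11 passed the filter on dim values. Among these 11, both KO clones lay above both WT clones for 8 and below them for 1 in the normalized intensities. Over all 27022 probe sets fitted, 23.9% lay above and 28.4% below in this way. By limma's threshold (adjusted p under 0.05 over all probe sets), 3 of the 11 passed, all higher in KO (2 for Ptgs2 and 1 for Pla2g4a), beside 2.44% of all probe sets called higher. Because these genes were chosen with this comparison known, the counts describe the members and support nothing further. The middle 90 in 100 of all fitted probe sets had log2 differences from -0.61 to 0.68.

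**Figure D2:**
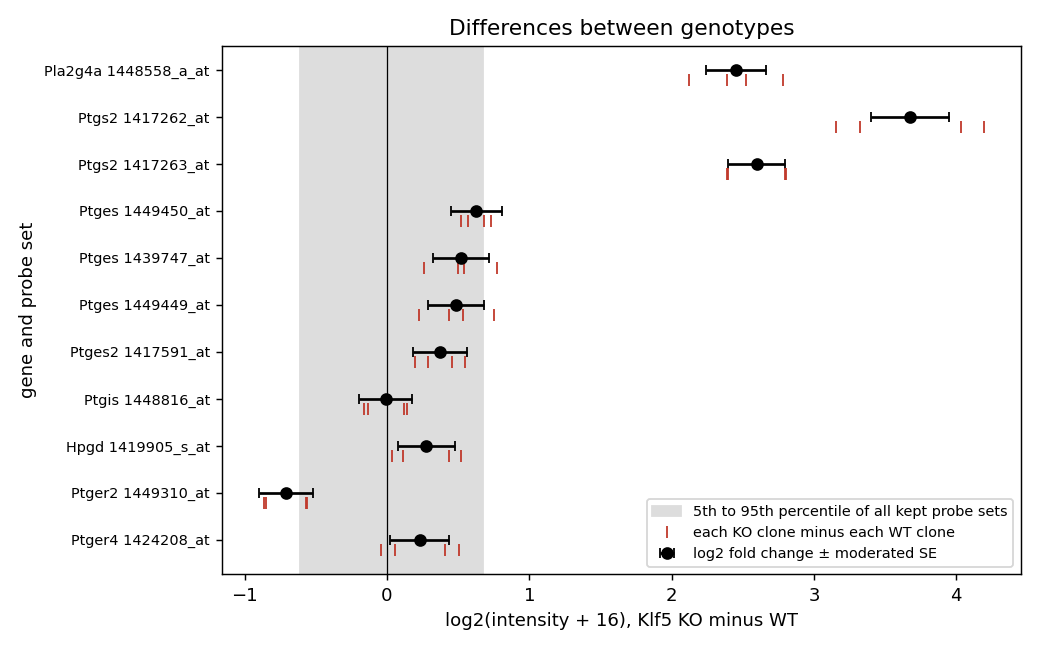
Log2 difference, Klf5 KO minus WT, of the 11 member probe sets kept by the filter (points, with the moderated SE, n = 2 clones per group), each KO clone minus each WT clone (red ticks), and the 5th to 95th percentile of all fitted probe sets (grey, -0.61 to 0.68). Ptgs2 and Pla2g4a lie far outside the grey band, Ptger2 just below it and the other members inside it.

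Ptgs2 and Pla2g4a are neighbours on mouse chromosome 1, with no protein-coding gene between them in RefSeq's annotation of GRCm38.p6. The genes around them were looked at after the values of this pair had been seen. Of the 6 protein-coding genes on either side of Ptgs2, Odr4, a gene of protein trafficking, and 3110040M04Rik were, besides Pla2g4a, the only ones with a probe set bright enough for the fit. The probe sets of Odr4 had 0.24 ± 0.19 and 0.34 ± 0.19 (limma, adjusted p = 0.52 and 0.33). The transcript 3110040M04Rik read 59.2 and 41.7 in Klf5 KO clones 1 and 2, against 95.1 and 128 in WT clones 1 and 2, with a log2 difference of -0.94 ± 0.22 (adjusted p = 0.051). Rgs21 and Tpr had no probe set named for them alone, and the probe sets of the others fell under the filter.

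**Figure D3:**
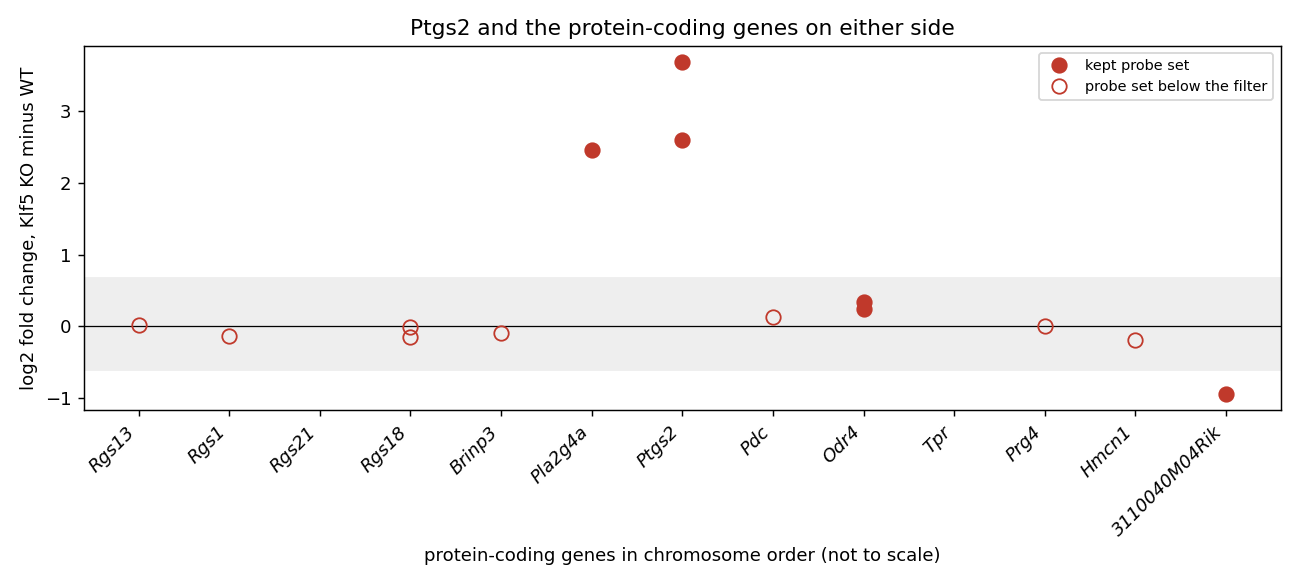
Log2 difference, Klf5 KO minus WT, of every probe set named for Ptgs2 or for 6 protein-coding genes on either side, in chromosome order and not to scale. Filled points were bright enough for the fit, open points were not, and the grey band is the 5th to 95th percentile of all fitted probe sets; Ptgs2 and Pla2g4a are the points at 2.45 and above.

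The genes outside the members were taken from 7 lists of 100 genes, of which 76 were measured. Here the representative of a gene is its brightest probe set. Of the 76, 6 rose, 0 fell and 70 did not pass (limma, adjusted p under 0.05; at an unadjusted p under 0.05, 14 were higher and 3 lower), beside 2.94% of all 13023 genes called higher and 1.34% called lower. One of the 6, Il6, was bright enough for the fit only in the KO clones. Their median log2 difference was 0.019, beside -0.024 for all genes. With each array centred on its median in place of quantile normalization, 6 of 74 measured rose and 4 fell. In that setting 640 of all 27022 probe sets rose and 1420 fell, against 659 and 337 in the main fit. The median over all probe sets was -0.16 there, in place of -0.022. The count past the threshold was 1 without KO clone 1, 2 without KO clone 2, 5 without WT clone 1 and 4 without WT clone 2. Over the alternatives limma's adjusted p ran from 0.0042 to 0.47 for Pla2g10, from 0.0074 to 0.37 for Pla2g7, from 0.014 to 0.34 for Akr1c18 and from 0.0011 to 0.14 for Zadh2, which all failed with a constant of 1, with no filter and in the intensities as deposited. Il6 failed with no filter (0.073) and fell under the filter without KO clone 1, without KO clone 2, with a constant of 1 and at the stricter percentile, and Cav1 passed in every alternative run.

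Among 26 measured genes of phospholipase A2 and arachidonate handling, 2 rose, 0 fell and 24 did not pass, with a median of -0.053. Pla2g10, a secreted phospholipase A2, read 699.5 and 562 in Klf5 KO clones 1 and 2, against 252 and 331 in WT clones 1 and 2, and rose by 1.08 ± 0.21 (adjusted p = 0.028). Pla2g7, which degrades platelet-activating factor and does not supply arachidonic acid for prostaglandins, rose by 1.03 ± 0.18 (adjusted p = 0.019). Both calls were lost without either KO clone (with KO clone 1 left out, adjusted p = 0.19 for Pla2g10 and 0.12 for Pla2g7; with KO clone 2 left out, 0.071 and 0.078). Pla2g10 also failed without WT clone 1 (0.11) and Pla2g7 without WT clone 2 (0.10). Acsl4, which attaches coenzyme A to arachidonic acid, had 0.61 (adjusted p = 0.10). Pla2g1b, another phospholipase A2, went the other way at -0.68 ± 0.19 (limma, adjusted p = 0.093). Of the 26, both KO clones lay above both WT clones for 7 and below them for 7, beside 3372 and 3866 of all 13023 genes.

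Of 5 other prostanoid synthases measured, Akr1c18 rose and 4 did not pass. Akr1c18 is a mouse aldo-keto reductase that inactivates progesterone and can form prostaglandin F2α. It read 45.02 and 42.5 in Klf5 KO clones 1 and 2, against 12.0 and 18.97 in WT clones 1 and 2, and rose by 0.93 ± 0.19 (adjusted p = 0.034). The call was lost with any 1 clone left out (adjusted p from 0.053 without WT clone 2 to 0.18 without KO clone 1). Of 6 genes of breakdown and transport, Zadh2, a prostaglandin reductase, rose and 5 did not pass. Zadh2 read 114 and 96.8 in Klf5 KO clones 1 and 2, against 36.5 and 32.7 in WT clones 1 and 2, a rise of 1.26 ± 0.18 (adjusted p = 0.0081; 0.085 without KO clone 1).

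Of the 8 other prostanoid receptor genes listed, only Ptgdr and Ptgfrn were bright enough to be fitted, and 0 passed. The probe sets of Ptger1, Ptger3, Ptgfr, Ptgir, Ptgdr2 and Tbxa2r fell under the filter. Ptgdr, a prostaglandin D2 receptor, had -0.082 ± 0.28 (adjusted p = 0.90), a value of 0.31 without KO clone 2. Ptgfrn, a membrane protein that binds to the prostaglandin F receptor, had a log2 difference of -0.30 ± 0.20 (adjusted p = 0.43). Leaving out KO clone 1 gave -0.14, and the other Ptgfrn probe set fitted had 0.35. Among 9 lipoxygenase and leukotriene genes, which serve the parallel use of arachidonic acid, 0 passed. Lta4h, leukotriene A4 hydrolase, had -0.51 ± 0.24 (adjusted p = 0.28), and -0.23 without WT clone 1. It had -0.79 after centring on the median, where it passed (adjusted p = 0.043, with an SE shared by all genes looked at). Alox15, a lipoxygenase, had 0.45 ± 0.21 (adjusted p = 0.26), and 0.23 without WT clone 2.

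Of 18 measured inducers and regulators of Ptgs2, 2 passed (Cav1 and Il6) and 16 did not, with a median of 0.12. Cav1 (caveolin 1, the coat protein of caveolae) read 606 and 692 in Klf5 KO clones 1 and 2, against 105 and 97.7 in WT clones 1 and 2, and rose by 2.50 ± 0.18 (adjusted p = 0.00023). The cytokine Il6 read 51.2 and 30.8 in Klf5 KO clones 1 and 2, against 2.55 and 3.78 in WT clones 1 and 2. Its log2 difference was 1.55 ± 0.22, and 0.64 with a constant of 64. Both WT values lie under the filter intensity of 13.05, so Il6 entered the fit only through the KO clones. The classical inducers Tnf and Il1a, and the receptor gene Il1r1, were too dim to be fitted. Il1b had 0.0032 ± 0.20. The inducible factors Cebpb and Jun had 0.60 ± 0.18 and 0.91 ± 0.26 (adjusted p = 0.12 and 0.10). A dimmer Cebpb probe set had 0.058. Creb1 and Atf4 went the other way, at -0.56 ± 0.18 and -0.43 ± 0.20 (limma, adjusted p = 0.13 and 0.28), and dimmer Creb1 probe sets included -0.21 and 0.044. Of the 18, both KO clones lay above both WT clones for 9 and below them for 3, beside 3372 and 3866 of all 13023 genes.

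Among 10 measured genes that respond to or carry cyclic AMP, the messenger downstream of EP2 and EP4, 0 passed in either direction, with a median of 0.26. Nr4a1, an immediate early nuclear receptor, read 369 and 346 in Klf5 KO clones 1 and 2, against 599 and 583 in WT clones 1 and 2. Its log2 difference was -0.70 ± 0.18 (adjusted p = 0.069). It passed with a constant of 64 (0.012), with the stricter filter (0.033) and with a variance trend (0.022). It also passed after centring on the median (0.0067, with an SE shared by all genes looked at). Over its alternatives the adjusted p ran from 0.0067 to 0.22. Prkar2b, a regulatory subunit of protein kinase A, had 0.60 ± 0.19 (adjusted p = 0.12), and dimmer Prkar2b probe sets had 0.48 and -0.14.

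Of 8 markers of undifferentiated ES cells, 0 passed in either direction, with a median of -0.21. Both KO clones lay below both WT clones for 5 and above them for 1, beside 3866 and 3372 of all 13023 genes. Esrrb differed most, at -0.67 ± 0.21 (limma, adjusted p = 0.13), and dimmer Esrrb probe sets had -0.93 and -0.28. The markers summed to 33035 and 33658 in the KO clones and 34995 and 35647 in the WT clones. Dppa5a weighed most in each sum, at 10124 and 10838 in the KO clones and 10276 and 10142 in the WT clones. Of 20 measured fibroblast and feeder cell markers, 17 rose and 0 fell, beside 2.94% of all genes called higher and 1.34% called lower. Their median was 2.23, and they summed to 11340 and 11024 in the KO clones and 3154 and 2057 in the WT clones. Among the fibroblast markers Fap and Lum were under the filter. Col6a1, Dcn and Prrx1 read under the filter intensity of 13.05 in both WT clones, so they entered the fit only through the KO clones. Of the 20, 10 read higher in WT clone 1 than in WT clone 2 and 10 lower. Sparc alone read 2247 and 1181 in WT clones 1 and 2, and without it the sums were 8420 and 7669 in the KO clones and 907 and 875 in the WT clones. Their part in the difference of Ptgs2 and Pla2g4a was not tested. In RNA from whole cultures, fewer cells of a type and less RNA per cell cannot be told apart. Of 7 markers of macrophages and other blood cells, which also use Ptgs2, 4 were measured and 0 passed. Ptprc, Itgam and Tyrobp were under the filter. The 4 summed to 229 and 250 in the KO clones and 234 and 222 in the WT clones. Cd68 weighed most in each sum, at 124 and 149 in the KO clones and 150 and 136 in the WT clones. Lyz2 read 45.4 and 31.6 in the KO clones, against 20.1 and 8.58 in the WT clones. Its log2 difference was 0.86 ± 0.24 (limma, adjusted p = 0.088). The groups overlapped for Cd68, Adgre1 and Csf1r, and dimmer Csf1r probe sets had 0.53 and 0.23. Of 4 endothelial markers 2 were measured and 0 passed, with sums of 109 and 123 in the KO clones and 134 and 131 in the WT clones.

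**Figure D4:**
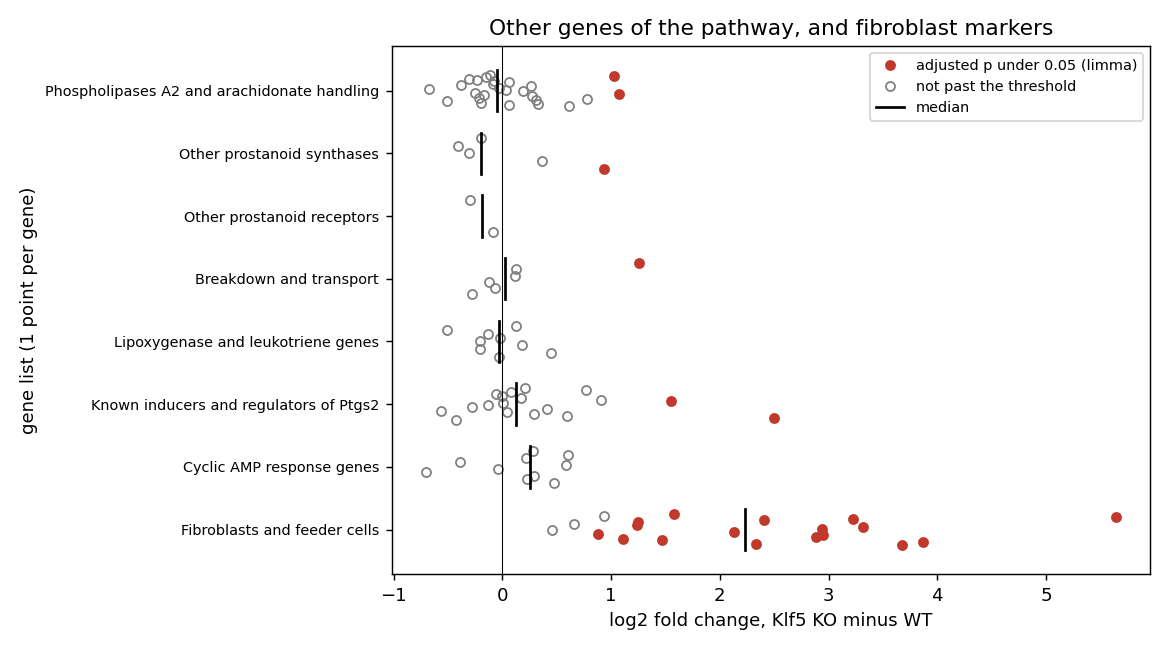
Log2 difference, Klf5 KO minus WT, of each measured gene in the 7 other pathway lists and in the list of fibroblast markers (1 point per gene, red where limma's adjusted p was under 0.05, black bar at the median). The pathway lists centre near 0, with medians from -0.19 to 0.26, and the fibroblast list at 2.23.

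The genes whose course over the 4 clones lay nearest to that of the brighter Ptgs2 probe set were Cavin2, Grem1, Tnc, Cd44 and Gng11. Nearness was the root mean square difference of log2 values centred on each gene's mean, over 4 clones and 13015 genes, and it ran from 0.16 for Cavin2 to 0.31 for Gng11. Cavin2, a caveola gene, read 335 and 259 in Klf5 KO clones 1 and 2, against 17.0 and 6.89 in WT clones 1 and 2, with WT clone 1 above WT clone 2 as for Ptgs2. Grem1 (a BMP antagonist) had a log2 difference of 3.66, Tnc (tenascin-C) 4.01, Cd44 (a hyaluronan receptor) 4.001 and Gng11 (a G protein subunit) 3.29. All 5 genes were several-fold higher in the KO clones, which follows from choosing them by their likeness to Ptgs2 and is not a separate result. The WT mean of Cavin2 lay under the filter, so it entered the fit only through the KO clones.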

How the data were processed

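Biotin-labelled total RNA from 2 Klf5 KO and 2 WT clones was hybridised to Affymetrix arrays, per the labels. The authors deposited 1 linear intensity per probe set and array. The sources used here do not give the probe summary, background correction or scaling. The trimmed means of the arrays (2% removed at each end) differed by up to 1.65 times, so the intensities were quantile normalized and log2(intensity + 16) was taken. After removal of 64 control probe sets, those with a mean log2 value under the 40th percentile (an intensity of 13.05) were left out, and 27022 were fitted with limma 3.58.1 in R 4.3.3 (lmFit, eBayes; Benjamini-Hochberg over all fitted probe sets, threshold 0.05). The number of arrays, 2 per group, limits the precision. In the main fit, each p-value sets a difference against the spread between these clones. For that, limma draws each probe set's spread toward that of all fitted probe sets (6.87 prior against 2 residual degrees of freedom). With the intensities as deposited and after centring on the median, the SE was the same for every gene looked at (0.38 and 0.27). The p-values of those alternatives therefore used a spread common to all genes, not each gene's own.

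Probe sets were named from the platform annotation, and those with several symbols were not named. A gene was represented by its brightest kept probe set (one with suffix _x_at only for lack of another). Named genes were all member probe sets, list genes past the threshold (for a list with none, its 2 largest differences), Klf5 and the 5 nearest to Ptgs2. Acsl4, Pla2g1b, Il1b, Cebpb, Jun, Creb1, Atf4, Esrrb, Dppa5a, Col6a1, Dcn, Prrx1, Sparc and the genes beside Ptgs2 were named after their values were seen. So were Cd68, Lyz2, Adgre1 and Csf1r. The members, lists and motifs were chosen with earlier results of these data known. No p is given for members, which were chosen with this comparison known. Promoters came from RefSeq (9 of 10 members matched). The fit was run on simulated data with the same noise for every probe set and only large differences, placed in bright probe sets. That run says nothing of small differences, dim probe sets or uneven noise.

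The alternatives were a constant of 1 or 64, no filter or the 60th percentile, intensities as deposited, centring on the median, a variance trend, a block for clone number, leaving out each array (which assumes that the lone clone varies as the other genotype does) and averaging the probe sets of a gene.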

Additional observations from a re-analysis of the deposited data

How the results depend on the processing

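In this balanced design the filters, the variance trend and the block cannot change a member's difference, which leaves 8 alternatives that can. The brighter Ptgs2 probe set kept its direction under all 8, with log2 differences from 2.95 (constant of 64) to 4.05 (constant of 1), and from 3.24 to 3.99 with 1 array left out. Of the 13 member probe sets, Ptgis changed sign, in 2 alternatives. Of 104 member values under these 8, 27 moved by at least the SD between clones. The count of other pathway genes past the threshold, 6, was 1 with a constant of 1, 1 with no filter, 2 with the intensities as deposited, 10 after centring on the median, 10 when the probe sets of a gene were averaged, 12 with a constant of 64 and 12 with a variance trend, and from 1 to 5 with 1 array left out; the cause was not tested. The median over all fitted probe sets was -0.19 in the intensities as deposited and -0.16 after centring, against -0.022. Of all 27022 probe sets, 215 rose and 117 fell as deposited, and 640 rose and 1420 fell after centring. In the main fit 659 rose and 337 fell. Ptgdr, at -0.082, ran from -0.30 without WT clone 1 to 0.31 without KO clone 2. With clone number as a replicate block, which the labels do not make a pairing (the clones' deviations correlated at 0.055), the count was 7. Signal over background limits Ptger2, Il6 and the dimmer probe sets of Hpgd and Ptger4, which read near or under the filter intensity in at least 1 genotype.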
